A study of Homo sapiens with 18 samples.

Results

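The genes described here are 45 genes of the lysosome and of autophagy, out of 26443 genes with values in the deposited table. They were taken by symbol: GPNMB, 3 transcription factors of the MiT family, 7 membrane proteins, 8 proteases, 9 glycosidases and sulfatases, 7 genes of lipid handling, 6 genes of the proton pump and 4 autophagy genes. A gene was tested where at least 3 of the 18 libraries reached 1 RPKM (reads per kilobase of transcript per 1e6 mapped reads), which 12900 genes and 43 of the 45 did. The cathepsin CTSC and the transcription factor MITF stayed below that level in all 18 libraries.

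The cells were LNCaP, an established prostate cancer line with an active androgen receptor. The 6 groups had 3 libraries each: control (the pGIPZ vector), shHIF1A, shFOXA1, shFOXA1+shHIF1A (lentiviruses for both shRNAs), control+KC7F2 (the pGIPZ vector and KC7F2, a small-molecule HIF1A inhibitor) and shFOXA1+KC7F2. Infection lasted 5 days and KC7F2 was given at 40 µM for 24 h. All 6 groups, controls included, also received 100 µM CoCl2 for 24 h, which mimics low oxygen, so no group shows the genes without it. HIF1A is the oxygen-controlled part of a transcription factor, and FOXA1 is a forkhead factor that opens chromatin in prostate epithelium. The number of shRNA sequences per gene, the vehicle for KC7F2 and whether the triplicates were separate cultures are not stated. P-values therefore measure the spread between these libraries.

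Lysosomes are acidic organelles in which hydrolases break down proteins, sugars and lipids, and the vacuolar proton pump keeps them acidic. Autophagy delivers the cell's own material to them in double-membraned vesicles. TFEB, TFE3 and MITF bind E-boxes, DNA letters with CACGTG at their core, in front of many lysosomal genes. GPNMB is a membrane glycoprotein of melanosomes and lysosomes, known in melanocytes and macrophages and as a target of MITF and its relatives.

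Depth was recovered from the spacing of the lowest values and ran from 3.21 to 12.0 (in units of 1e6 reads per library), lowest in shFOXA1+shHIF1A replicate 1. Control replicate 1 and control+KC7F2 replicates 1 and 3 stood apart: relative to the mean of all libraries, the shortest 25% of protein-coding genes was 0.34 to 0.48 (log2) above the longest 25% in them, and -0.19 to 0.13 in the other 15. FOXA1 had a mean of 97.5 RPKM in control, 34.1 RPKM in shFOXA1 (36.0% left) and 39.3 RPKM in shFOXA1+KC7F2. It was at 64.5 RPKM in shFOXA1+shHIF1A, which was 53.8% of shHIF1A (120 RPKM) and 1.87-fold above shFOXA1 (log2 0.91 ± 0.16, adjusted p = 0.000302). The group with both shRNAs thus held more FOXA1 than shFOXA1, and every result on HIF1A knockdown in the FOXA1 knockdown uses it. The interaction for FOXA1 itself did not pass (0.58 ± 0.22, adjusted p = 0.142). HIF1A had 23.1 RPKM in control and 3.56 RPKM in shHIF1A. HIF1A was at 89.9 RPKM in shFOXA1 and 4.32 RPKM in shFOXA1+shHIF1A. The HIF1A shRNA thus lowered HIF1A 5.60-fold against control and 18.7-fold in the FOXA1 knockdown. The interaction for HIF1A itself passed (-1.74 ± 0.33, adjusted p = 0.00326). The change of HIF1A with KC7F2 against control did not pass the test (log2 -0.38 ± 0.23 SE, adjusted p = 0.559). In the FOXA1 knockdown the change with KC7F2 did not pass either (-0.52 ± 0.23, adjusted p = 0.275), though the libraries of those groups did not overlap. The data hold RNA only, so HIF1A protein under KC7F2 was not tested. All 7 markers of LNCaP cells were expressed. All 8 macrophage markers stayed below 1 RPKM in every library, their sum ran from 0.126 to 1.15 RPKM over the 18 libraries, and TYROBP was at 0 in all of them. Of 6 melanocyte markers, PMEL and TYRP1 reached 1 RPKM in at least 3 libraries, and TYR was at 0 in all 18.

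E-boxes stood in the promoters of some of these genes, and 4 such stretches are shown. They were chosen by longest match centred on CACGTG, then most copies of it, then smallest p of limma's F test over the 6 groups. The last step, which uses the RPKM values, placed CTSA before CLN3. RefSeq promoters (GRCh38.p14, 250 bases before to 50 after the first listed start) were matched by symbol for 34 of the 45 genes. The stretches run 5′ to 3′, lie on the plus strand and end at the last base before the start. Capitals mark CACGTG, with T before and A after it, or GT before and AC after it, where these are present. They are from GAA at chr17:80101481-80101580, MCOLN1 at chr19:7522524-7522623, LAMP1 at chr13:113297039-113297238 and CTSA at chr20:45891235-45891334.
GAA: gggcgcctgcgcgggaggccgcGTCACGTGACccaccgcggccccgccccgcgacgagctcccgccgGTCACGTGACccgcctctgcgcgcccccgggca
MCOLN1: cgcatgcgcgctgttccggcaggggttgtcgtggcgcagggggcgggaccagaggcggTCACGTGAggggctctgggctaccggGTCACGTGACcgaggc
LAMP1: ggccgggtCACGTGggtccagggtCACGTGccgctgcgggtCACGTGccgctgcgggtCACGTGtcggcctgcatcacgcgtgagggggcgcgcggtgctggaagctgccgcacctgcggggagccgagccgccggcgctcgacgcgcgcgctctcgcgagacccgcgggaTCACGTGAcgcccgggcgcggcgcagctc
CTSA: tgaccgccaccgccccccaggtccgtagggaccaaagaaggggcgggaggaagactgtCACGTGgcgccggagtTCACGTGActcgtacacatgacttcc

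CACGTG was found in 10 of the 34 promoters (29.4%) and in 7.43% of all 27305 promoters of the same length, one per symbol. With T before and A after it, it was found in 6 of 34 (17.6%) and in 1.04% of all. With GT before and AC after, the fully palindromic form of the element known from lysosomal genes, it was found in GAA and MCOLN1 only (5.88%), against 0.381% of all. Both strands were searched, and each longer form is counted within the shorter ones. ACGTG or GCGTG, the letters at the core of hypoxia response elements, was found in 24 of 34 (70.6%) and in 48.4% of all, and it overlaps the E-box. The letters of forkhead sites, TGTTTAC or TATTTAC, were found only in CTSL (2.94%), against 6.05% of all. Letters alone do not show binding. The E-box forms are already known from lysosomal genes, so their shares here are not separate evidence on these genes.

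The GPNMB promoter held no CACGTG in this window. It held TCATGTG, the M-box form of the E-box bound by MITF and its relatives, at 2 places, and was searched for it after its values had been seen. The stretch at chr7:23246625-23246774 (GRCh38.p14, plus strand) is shown with the M-box, which here reads on the minus strand, in capitals. The matches begin 123 and 62 bases before the start.
GPNMB: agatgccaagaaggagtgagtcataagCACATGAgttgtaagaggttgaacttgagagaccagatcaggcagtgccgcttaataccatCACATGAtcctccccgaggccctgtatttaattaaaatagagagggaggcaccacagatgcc
TCATGTG was found in 6 of the 34 promoters (17.6%) and in 2.99% of all.

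GPNMB (chromosome 7, 23235967 to 23275108, GRCh38, plus strand) was lowered by the HIF1A shRNA and raised by KC7F2, with and without FOXA1 knockdown. Its level was 7.19, 5.65 and 6.31 RPKM in the control libraries (mean 6.38 ± 0.774 SD, n = 3). In shHIF1A it was 1.11, 1.49 and 1.54 RPKM. In control+KC7F2 it was 22.0, 22.6 and 23.0 RPKM. These 3 groups did not overlap: the shHIF1A libraries were all below the controls and the KC7F2 libraries all above. In shFOXA1 it was 7.28, 6.81 and 6.78 RPKM, within the range of the controls except for 1 library just above them. In shFOXA1+shHIF1A it was 2.33, 2.68 and 2.87 RPKM. In shFOXA1+KC7F2 it was 39.7, 33.9 and 34.8 RPKM, the highest of the 6 groups. The order of the groups was shHIF1A, shFOXA1+shHIF1A, control, shFOXA1, control+KC7F2 and shFOXA1+KC7F2, and control and shFOXA1 were the only neighbours whose libraries overlapped.

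**Figure D1:**
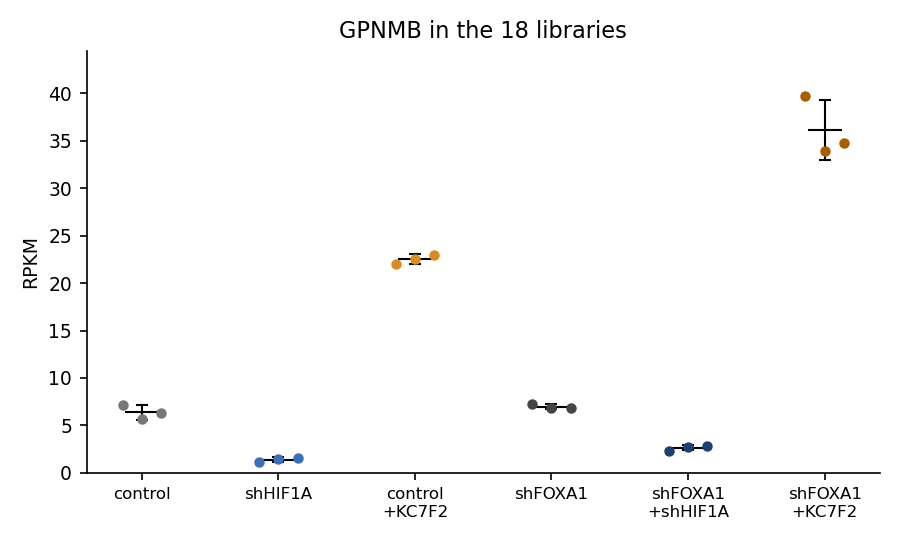
GPNMB level (RPKM, linear axis from 0) in the 18 libraries, by group. Points are libraries, and bars are mean ± SD of 3: shHIF1A lies at 1.11 to 1.54 RPKM and shFOXA1+KC7F2 at 33.9 to 39.7 RPKM.

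Changes are differences of log2(RPKM + 0.5) between group means, given ± SE, and folds come from them, which understates the change of genes at low RPKM. The words rose and fell are used at an adjusted p below 0.05 (limma, Benjamini-Hochberg over the 12900 genes). HIF1A knockdown left 27.3% of GPNMB against control (log2 -1.87 ± 0.11, adjusted p = 4.85e-09), and 41.9% when added to FOXA1 knockdown (log2 -1.26 ± 0.11, adjusted p = 2.7e-07). KC7F2 raised GPNMB 3.36-fold against control (log2 1.75 ± 0.11, adjusted p = 1.53e-07) and 4.91-fold when added to FOXA1 knockdown (log2 2.29 ± 0.11, adjusted p = 7.07e-09). These 4 calls held in every alternative setting run. FOXA1 knockdown against control gave 0.12 ± 0.11 (adjusted p = 0.469). It raised GPNMB by 0.74 ± 0.11 where HIF1A was also knocked down (adjusted p = 0.000261) and by 0.67 ± 0.11 under KC7F2 (adjusted p = 0.000288).

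The fall of GPNMB with HIF1A knockdown was smaller in the FOXA1 knockdown, with an interaction of 0.62 ± 0.16 (adjusted p = 0.0234). That call was lost with median-ratio scaling (0.57, adjusted p = 0.0507), with only the groups compared in the fit (adjusted p = 0.0825) and without the 3 libraries that stood apart (0.53, adjusted p = 0.0858). It was also lost without control replicate 1, shHIF1A replicate 1, shFOXA1 replicate 2 or 3 or shFOXA1+shHIF1A replicate 3, each left out alone (0.51 to 0.60, adjusted p of 0.0527 to 0.0618). For KC7F2 the interaction did not pass (0.55 ± 0.16, adjusted p = 0.294). In bulk RNA, fewer cells with a transcript and less of it per cell cannot be told apart. The summed melanocyte markers were 8.95 to 10.4 RPKM in shHIF1A, where GPNMB was lowest, 4.12 to 5.69 RPKM in control and 5.14 to 5.40 RPKM in control+KC7F2. The part of such cells in the GPNMB values was not tested.

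The MiT factors differed in level. MITF was at 0.852, 0.991 and 0.875 RPKM in control and 0.405, 0.322 and 0.254 RPKM in shFOXA1, with no overlap. It was at 0.640 to 0.793 RPKM in shHIF1A, 0.353 to 0.481 RPKM in shFOXA1+shHIF1A, 0.643 to 0.915 RPKM in control+KC7F2 and 0.356 to 0.490 RPKM in shFOXA1+KC7F2. All shFOXA1-infected groups lay below the groups without that shRNA. In a fit with no filter on low values, MITF fell by 0.77 ± 0.12 with FOXA1 knockdown against control (adjusted p = 0.000370), and the change with HIF1A knockdown did not pass (-0.20 ± 0.12, adjusted p = 0.275). CTSC, a protease that activates other proteases, was at 0.161 to 0.836 RPKM over the 18 libraries and passed in none of the 11 comparisons of that fit.

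TFEB was at 11.1, 8.52 and 6.31 RPKM in control and at 15.03, 12.3 and 11.8 RPKM in shHIF1A. It was at 10.1, 12.1 and 9.54 RPKM in shFOXA1, 14.6, 12.4 and 12.9 RPKM in shFOXA1+shHIF1A, 7.77, 6.64 and 7.73 RPKM in control+KC7F2 and 11.4, 9.40 and 11.4 RPKM in shFOXA1+KC7F2. The shHIF1A libraries were all above the controls, which themselves spread widely, and TFEB rose there by 0.59 ± 0.16 (adjusted p = 0.00718). After removal of each library's length and GC trend, that value was 0.30 (adjusted p = 0.113). TFEB also rose with FOXA1 knockdown under KC7F2 (0.51 ± 0.16, adjusted p = 0.0238). TFE3 was at 18.3, 21.3 and 18.8 RPKM in control, 24.9, 23.3 and 20.2 RPKM in shHIF1A and 20.0, 20.9 and 20.4 RPKM in shFOXA1. It was at 20.5, 22.8 and 20.5 RPKM in shFOXA1+shHIF1A, 23.9, 23.2 and 22.5 RPKM in control+KC7F2 and 29.5, 25.2 and 24.7 RPKM in shFOXA1+KC7F2. It rose when KC7F2 was added to FOXA1 knockdown (0.36 ± 0.10, adjusted p = 0.0445), and with FOXA1 knockdown in both groups it was higher with KC7F2 than with the HIF1A shRNA (0.31 ± 0.10, adjusted p = 0.0183).

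HIF1A knockdown moved the lysosomal and autophagy genes in both directions. Against control, 17 of the 43 rose and 4 fell, 21 called in all (48.8%), beside 42.0% of all tested genes called (25.9% rose and 16.1% fell). The median log2 fold change of the 43 was 0.22, and that of all tested genes was 0.07. When HIF1A knockdown was added to FOXA1 knockdown, 16 rose and 4 fell (46.5% called), beside 37.5% of all genes called (24.0% rose and 13.5% fell), with medians of 0.21 and 0.10. The split between rises and falls moved with scaling: it was 13 to 6 with median-ratio scaling and 18 to 7 with quantile normalisation against control, and 11 to 8 and 13 to 8 in the FOXA1 knockdown. In the FOXA1 knockdown, median-ratio scaling moved the median of all genes from 0.10 to -0.01. Sums of cell type markers moved with the HIF1A shRNA too. The 7 LNCaP markers summed to 1527 to 1950 RPKM in control and 902 to 1079 RPKM in shHIF1A. Of these, KLK3 alone ran from 267 to 958 RPKM over the 18 libraries. The 5 fibroblast markers, led by COL1A1, summed to 2.62 to 3.50 RPKM in control and 7.93 to 9.26 RPKM in shHIF1A. Of these, COL1A2, PDGFRB and DCN reached at most 0.0162, 0.123 and 0.189 RPKM in any library. The part of the markers in the results was not tested.

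**Figure D2:**
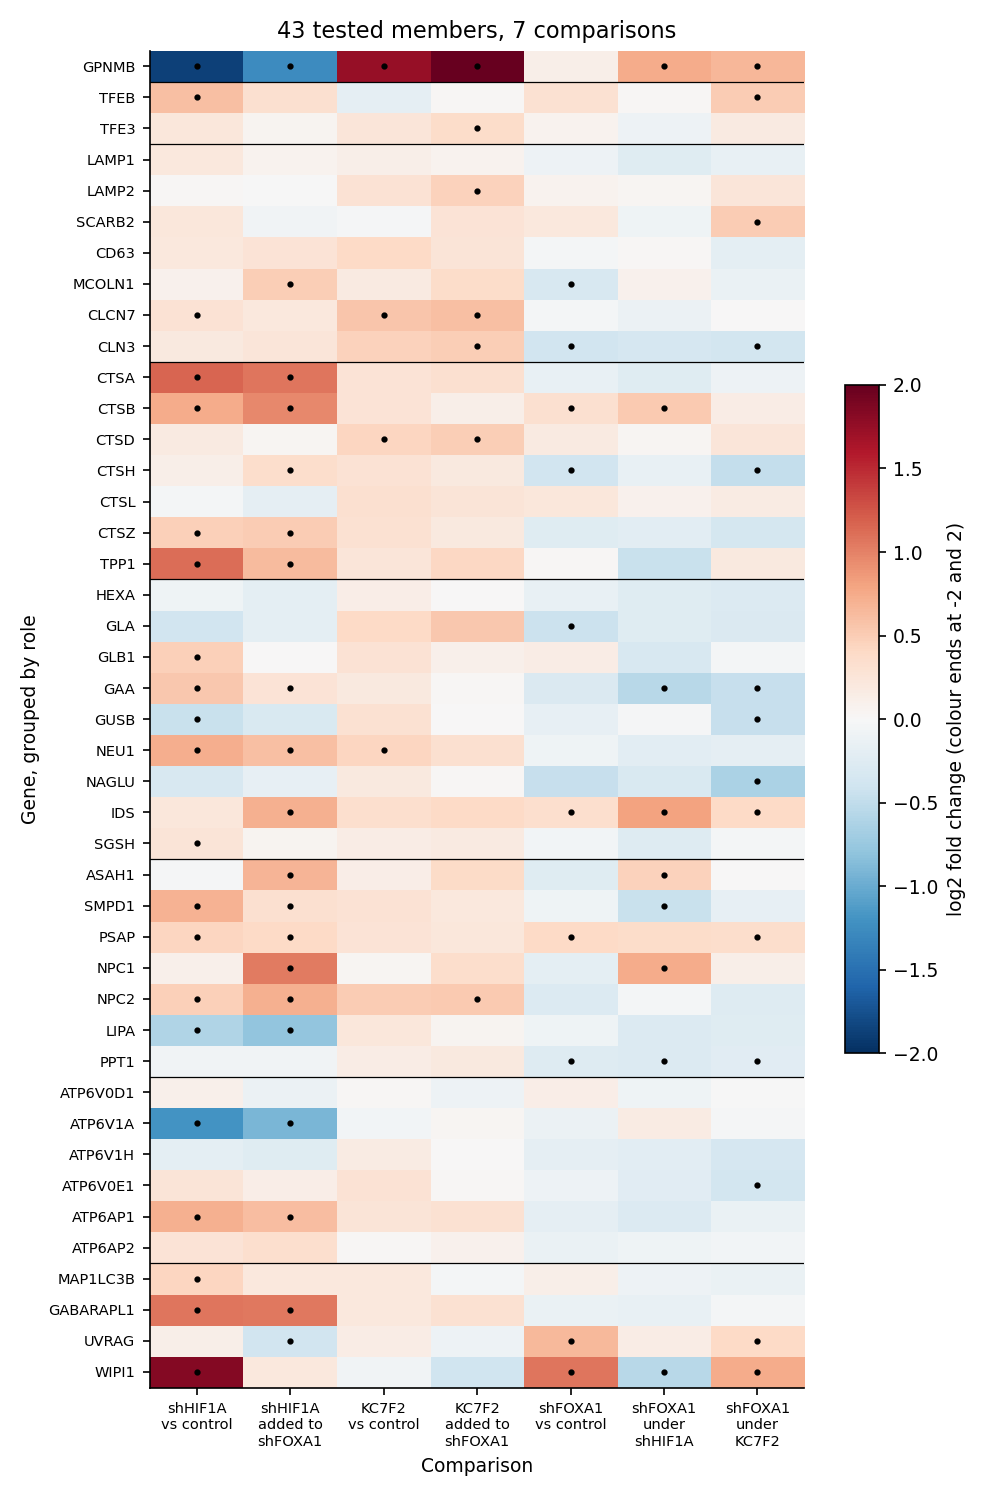
Log2 fold change of the 43 tested genes (rows, grouped by role and separated by lines) in 7 comparisons (columns), with red for higher and blue for lower and the colour ending at -2 and 2. Dots mark an adjusted p below 0.05 (limma): 21 and 20 genes carry one in the 2 HIF1A knockdown columns, and 4 and 7 in the 2 KC7F2 columns.

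Of the 6 proton pump genes, ATP6AP1 rose, ATP6V1A fell and 4 were not called with HIF1A knockdown, in each background. The shares of all tested genes called were 42.0% against control and 37.5% in the FOXA1 knockdown. ATP6V1A (chromosome 3, 113747019 to 113812056), the subunit of the pump that holds the catalytic ATP-binding site, was at 37.2, 33.4 and 37.7 RPKM in control and 14.2, 16.5 and 15.8 RPKM in shHIF1A. It was at 34.4, 33.1 and 32.2 RPKM in shFOXA1 and 17.3, 17.6 and 17.1 RPKM in shFOXA1+shHIF1A. It was at 32.9, 34.0 and 37.4 RPKM in control+KC7F2 and 33.8, 35.0 and 33.9 RPKM in shFOXA1+KC7F2. All 6 libraries with the HIF1A shRNA lay below all 12 others. ATP6V1A fell by 1.19 ± 0.08 against control (43.7% left, adjusted p = 1.64e-08) and by 0.92 ± 0.08 in the FOXA1 knockdown (adjusted p = 2.38e-07), and both calls held in every alternative setting.

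ATP6AP1, an accessory subunit that helps assemble the pump, was at 82.3, 91.7 and 82.1 RPKM in control and 149, 133 and 138 RPKM in shHIF1A. It was at 83.6, 73.7 and 68.9 RPKM in shFOXA1 and 121, 109 and 116 RPKM in shFOXA1+shHIF1A. It was at 110, 105 and 93.5 RPKM in control+KC7F2 and 94.5, 93.3 and 91.0 RPKM in shFOXA1+KC7F2. The HIF1A shRNA libraries were above their counterparts in both backgrounds, with rises of 0.71 ± 0.09 (adjusted p = 1.65e-05) and 0.61 ± 0.09 (adjusted p = 8.08e-05). ATP6V1H, a regulatory subunit, was at 31.5, 26.5 and 21.3 RPKM in control, 22.1, 23.1 and 22.7 RPKM in shHIF1A and 24.1, 25.7 and 19.8 RPKM in shFOXA1. It was at 19.9, 17.7 and 21.01 RPKM in shFOXA1+shHIF1A, 30.3, 26.7 and 31.1 RPKM in control+KC7F2 and 21.1, 23.9 and 24.4 RPKM in shFOXA1+KC7F2. Its single call in the 11 comparisons was between control+KC7F2 and shHIF1A (0.36 ± 0.13, adjusted p = 0.0329). ATP6V0D1 and ATP6AP2, further parts of the pump, were called in none of the 11, and ATP6V0E1 only in FOXA1 knockdown under KC7F2.

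The autophagy genes WIPI1 and GABARAPL1 were among the 4 genes of the 43 that rose at least 2-fold with HIF1A knockdown against control, with the proteases CTSA and TPP1. Of all 12900 tested genes, 675 rose that far. WIPI1 (chromosome 17, 68420948 to 68457513), a phosphoinositide-binding protein of the forming autophagosome, was at 7.18, 11.3 and 10.1 RPKM in control and 36.7, 36.7 and 31.2 RPKM in shHIF1A. It was at 20.4, 19.2 and 21.3 RPKM in shFOXA1 and 24.6, 22.5 and 23.4 RPKM in shFOXA1+shHIF1A. It was at 8.43, 9.96 and 8.53 RPKM in control+KC7F2 and 17.2, 17.2 and 11.9 RPKM in shFOXA1+KC7F2. Either shRNA alone gave levels above all control libraries, and both shRNAs together gave levels between those of the single ones.

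WIPI1 rose 3.58-fold with HIF1A knockdown (log2 1.84 ± 0.15, adjusted p = 1.42e-07) and by 1.08 ± 0.15 with FOXA1 knockdown (adjusted p = 6.41e-05). HIF1A knockdown added to FOXA1 knockdown gave 0.21 ± 0.15 (adjusted p = 0.311), and the interaction was -1.63 ± 0.22 (adjusted p = 0.000147), held in every alternative setting. FOXA1 knockdown lowered WIPI1 where HIF1A was also knocked down (-0.56 ± 0.15, adjusted p = 0.0212), a call lost when shHIF1A replicate 1 or 2 or shFOXA1+shHIF1A replicate 2 or 3 was left out (adjusted p of 0.0552 to 0.0822). It raised it under KC7F2 (0.74 ± 0.15, adjusted p = 0.00168). WIPI1 exons overlap those of ARSG on the opposite strand over 828 bases, and whether counting used strand is not given in the sources used here. ARSG was at 9.30 RPKM in control, 7.65 RPKM in shHIF1A and 16.2 RPKM in shFOXA1, so it moved with WIPI1 in shFOXA1 (log2 0.78 ± 0.19, adjusted p = 0.00572) and was not higher in shHIF1A. ARSG fell by 1.00 ± 0.19 when HIF1A knockdown was added to FOXA1 knockdown (adjusted p = 0.000511). Its interaction did not pass (-0.75 ± 0.26, adjusted p = 0.105). How far these genes share reads was not tested.

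GABARAPL1 (chromosome 12, 10212458 to 10223130), a membrane-bound ubiquitin-like protein of the autophagosome, was at 40.0, 43.7 and 39.1 RPKM in control and 88.4, 94.0 and 76.6 RPKM in shHIF1A. It was at 41.0, 34.5 and 36.6 RPKM in shFOXA1 and 81.5, 71.5 and 80.6 RPKM in shFOXA1+shHIF1A. It was at 47.7, 44.8 and 49.95 RPKM in control+KC7F2 and 40.6, 49.1 and 48.7 RPKM in shFOXA1+KC7F2. The libraries with the HIF1A shRNA were all at or above 71.5 RPKM and all others at or below 49.95 RPKM. Its rises were 1.06 ± 0.10 (adjusted p = 8.41e-07) and 1.05 ± 0.10 (adjusted p = 9.85e-07), with an interaction of -0.01 ± 0.15 (adjusted p = 0.977). GABARAPL3, a close copy with which reads could be shared, had a mean of 0.02 RPKM in control and 0.16 RPKM in shHIF1A.

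UVRAG, a part of a lipid kinase complex that acts in the maturation of endosomes and autophagosomes, rose with FOXA1 knockdown. It was at 2.74, 3.68 and 3.32 RPKM in control and 4.88, 5.64 and 5.54 RPKM in shFOXA1. It was at 3.54, 3.78 and 3.29 RPKM in shHIF1A and 3.68, 4.15 and 4.11 RPKM in shFOXA1+shHIF1A. It was at 3.94, 3.69 and 3.26 RPKM in control+KC7F2 and 5.51, 5.06 and 4.31 RPKM in shFOXA1+KC7F2. It rose by 0.65 ± 0.12 with FOXA1 knockdown (adjusted p = 0.000687), fell by 0.38 ± 0.12 when HIF1A knockdown was added to that (adjusted p = 0.0177), and its interaction did not pass (-0.50 ± 0.17, adjusted p = 0.0880). MAP1LC3B, the autophagosome marker LC3B, rose by 0.43 ± 0.14 with HIF1A knockdown against control (adjusted p = 0.0230) and was called in no other comparison against a control.

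**Figure D3:**
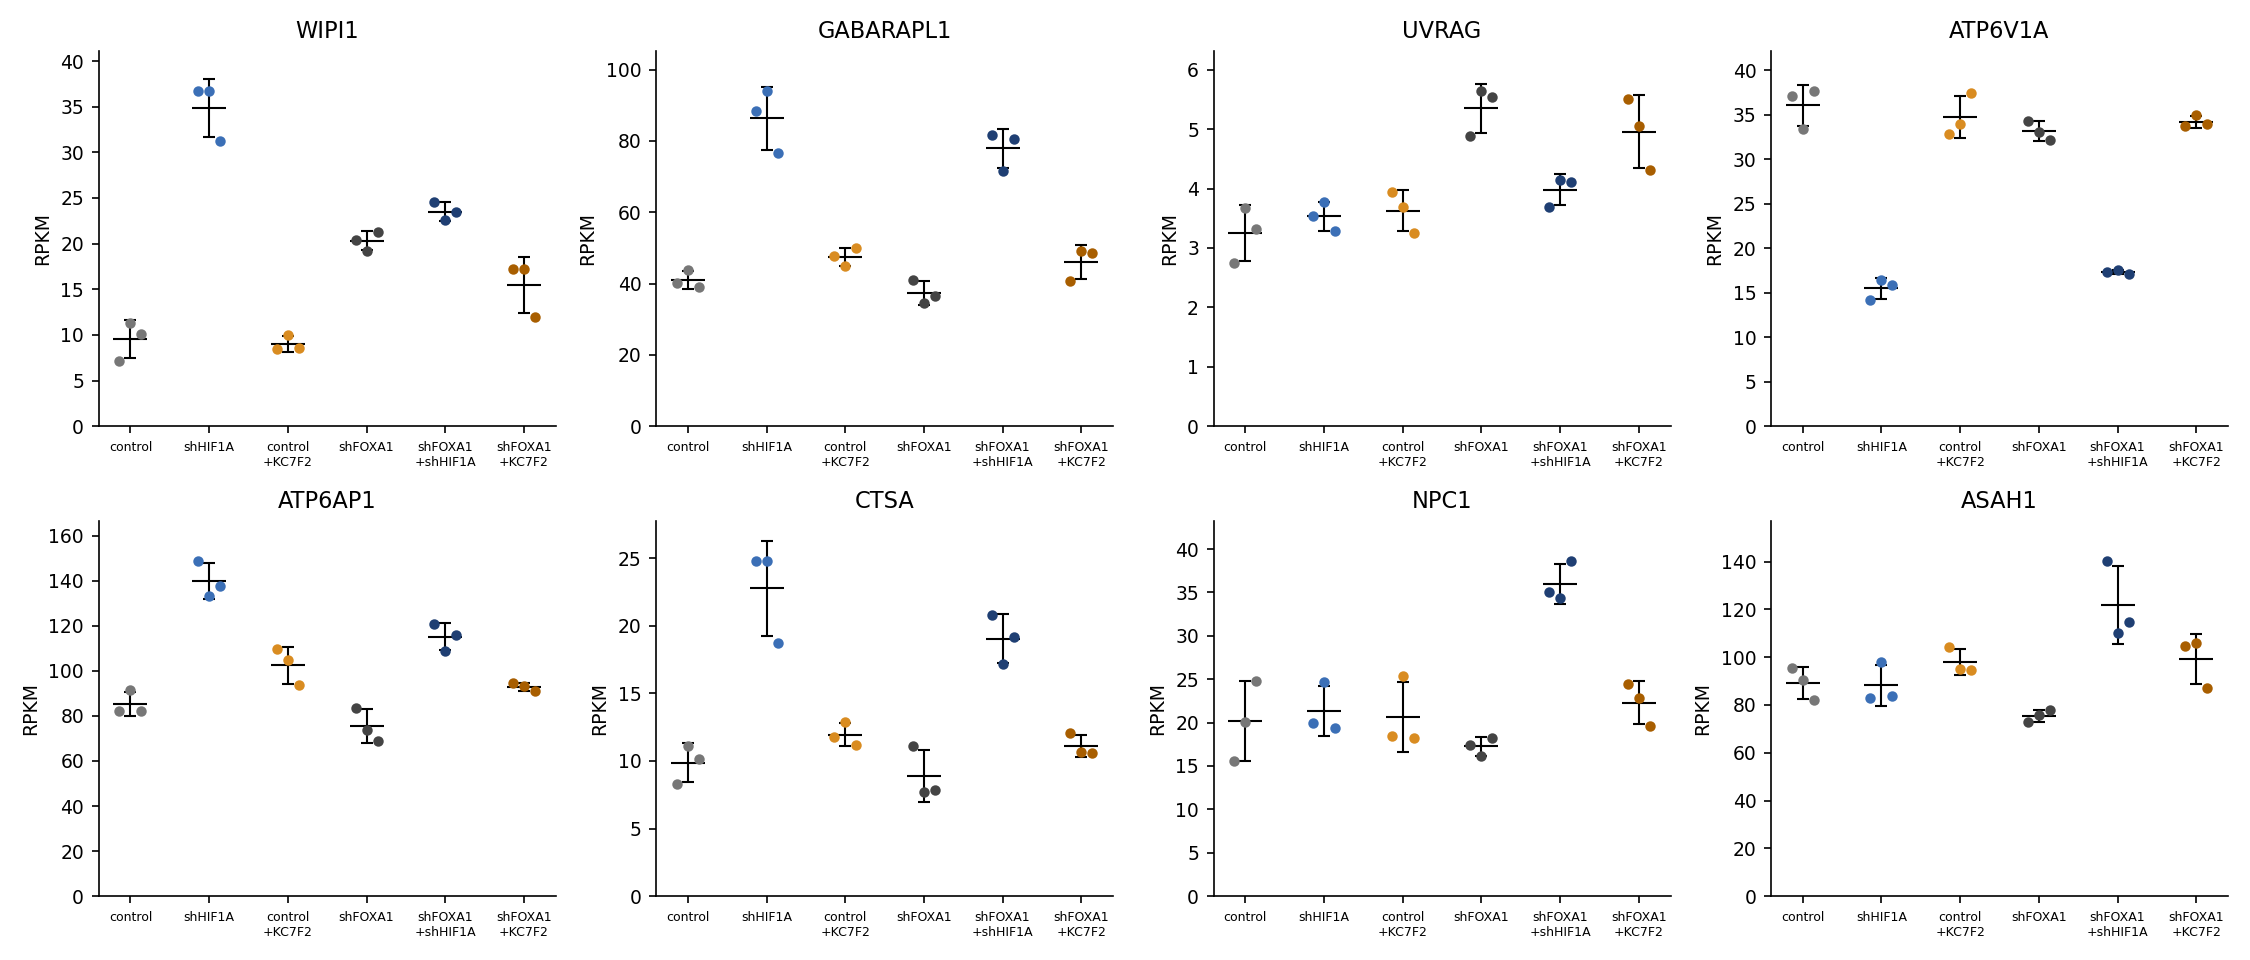
RPKM (linear axes from 0, each with its own range) of WIPI1, GABARAPL1, UVRAG, ATP6V1A, ATP6AP1, CTSA, NPC1 and ASAH1 in the 18 libraries, by group. Points are libraries, and bars are mean ± SD of 3: ATP6V1A is low and GABARAPL1 high in both groups with the HIF1A shRNA, while NPC1 and ASAH1 are high in shFOXA1+shHIF1A.

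Among the 7 tested proteases, 4 rose with HIF1A knockdown against control and 5 when it was added to FOXA1 knockdown, and none fell. The shares over all tested genes were 25.9% and 24.0% for rises and 16.1% and 13.5% for falls. CTSA (chromosome 20, 45890144 to 45898820), a carboxypeptidase that also protects the sialidase NEU1, was at 8.32, 11.1 and 10.1 RPKM in control and 24.8, 24.8 and 18.7 RPKM in shHIF1A. It was at 11.1, 7.74 and 7.87 RPKM in shFOXA1 and 20.8, 17.1 and 19.2 RPKM in shFOXA1+shHIF1A. It was at 11.8, 12.9 and 11.2 RPKM in control+KC7F2 and 12.0, 10.7 and 10.6 RPKM in shFOXA1+KC7F2. All 6 libraries with the HIF1A shRNA lay above all 12 others, and its rises were 1.17 ± 0.15 (adjusted p = 1.08e-05) and 1.07 ± 0.15 (adjusted p = 2.92e-05). Exons of CTSA overlap those of NEURL2, PLTP and an antisense gene on the opposite strand, over 1668 bases in all. NEURL2 had a mean of 1.73 RPKM in control and 1.14 RPKM in shHIF1A, PLTP stayed below 1 RPKM, and how far these genes share reads was not tested. TPP1, a tripeptidyl peptidase, rose by 1.11 ± 0.21 (adjusted p = 0.000413) and by 0.64 ± 0.21 (adjusted p = 0.0225).

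CTSB, a cysteine cathepsin, was at 35.5, 38.0 and 31.5 RPKM in control and 63.2, 64.4 and 49.96 RPKM in shHIF1A. It was at 45.8, 42.99 and 41.8 RPKM in shFOXA1 and 94.1, 78.6 and 82.4 RPKM in shFOXA1+shHIF1A. It was at 44.3, 42.6 and 40.3 RPKM in control+KC7F2 and 51.3, 44.5 and 46.2 RPKM in shFOXA1+KC7F2. Its levels were highest with both shRNAs, and it rose by 0.74 ± 0.11 (adjusted p = 4.73e-05) and 0.95 ± 0.11 (adjusted p = 4.36e-06) with HIF1A knockdown. CTSD, an aspartic protease, was at 146, 154 and 136 RPKM in control, 180, 163 and 150 RPKM in shHIF1A and 173, 173 and 149 RPKM in shFOXA1. It was at 190, 153 and 167 RPKM in shFOXA1+shHIF1A, 203, 194 and 189 RPKM in control+KC7F2 and 229, 220 and 245 RPKM in shFOXA1+KC7F2. The 6 libraries with KC7F2 were at 189 RPKM or more, 1 other library reached 190 RPKM, and its changes with HIF1A knockdown did not pass (0.17 ± 0.10, adjusted p = 0.192, and 0.04 ± 0.10, adjusted p = 0.799).

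Among the 9 glycosidases and sulfatases, 4 rose and 1 fell with HIF1A knockdown against control, and 3 rose when it was added to FOXA1 knockdown. Over all tested genes, 25.9% rose and 16.1% fell in the first comparison, and 24.0% rose and 13.5% fell in the second. NEU1, the sialidase that works in a complex with CTSA, was at 3.68, 3.18 and 2.95 RPKM in control and 5.88, 5.84 and 5.37 RPKM in shHIF1A. It was at 2.87, 3.08 and 3.23 RPKM in shFOXA1 and 5.04, 4.41 and 5.19 RPKM in shFOXA1+shHIF1A. It was at 4.95, 4.16 and 4.53 RPKM in control+KC7F2 and 3.96, 4.02 and 3.83 RPKM in shFOXA1+KC7F2. It rose by 0.72 ± 0.10 (adjusted p = 3.04e-05) and 0.59 ± 0.10 (adjusted p = 0.000220), and in each background the HIF1A shRNA libraries stood above their counterparts.

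GAA, the acid alpha-glucosidase that degrades glycogen, was at 39.4, 39.3 and 32.9 RPKM in control and 57.3, 57.1 and 48.1 RPKM in shHIF1A. It was at 28.8, 29.5 and 33.0 RPKM in shFOXA1 and 39.9, 34.1 and 36.5 RPKM in shFOXA1+shHIF1A. It was at 45.3, 42.0 and 40.7 RPKM in control+KC7F2 and 31.7, 31.8 and 29.1 RPKM in shFOXA1+KC7F2. HIF1A knockdown raised it by 0.54 ± 0.10 (adjusted p = 0.000448), and FOXA1 knockdown lowered it under HIF1A knockdown (-0.55 ± 0.10, adjusted p = 0.00145) and under KC7F2 (-0.46 ± 0.10, adjusted p = 0.00251). IDS, a sulfatase of heparan and dermatan sulfate, was at 6.98, 8.81 and 9.39 RPKM in control, 9.44, 10.4 and 9.63 RPKM in shHIF1A and 11.4, 10.1 and 10.4 RPKM in shFOXA1. It was at 18.7, 16.3 and 17.9 RPKM in shFOXA1+shHIF1A, 10.5, 11.5 and 9.89 RPKM in control+KC7F2 and 13.3, 16.6 and 13.0 RPKM in shFOXA1+KC7F2. Of its libraries with both shRNAs, 2 lay above all others. HIF1A knockdown added to FOXA1 knockdown raised it by 0.70 ± 0.12 (adjusted p = 0.000172), and its interaction did not pass (0.48 ± 0.16, adjusted p = 0.0958).

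Among the 7 genes of lipid handling, 3 rose and 1 fell with HIF1A knockdown against control, and 5 rose and 1 fell when it was added to FOXA1 knockdown. These counts lie beside 25.9% of all tested genes that rose and 16.1% that fell, and 24.0% and 13.5% in the FOXA1 knockdown. NPC1 (chromosome 18, 23506184 to 23586898), which exports cholesterol from lysosomes, was at 15.6, 20.1 and 24.8 RPKM in control, 20.0, 24.7 and 19.4 RPKM in shHIF1A and 17.4, 16.1 and 18.2 RPKM in shFOXA1. It was at 35.0, 34.3 and 38.6 RPKM in shFOXA1+shHIF1A, 18.4, 25.4 and 18.2 RPKM in control+KC7F2 and 24.4, 22.8 and 19.6 RPKM in shFOXA1+KC7F2. The libraries with both shRNAs lay above all others. HIF1A knockdown gave 0.10 ± 0.16 against control (adjusted p = 0.662) and a rise of 1.04 ± 0.16 in the FOXA1 knockdown (adjusted p = 7.67e-05), and the interaction was 0.94 ± 0.22 (adjusted p = 0.0155). NPC1 exons overlap those of RMC1, listed as C18orf8, on the opposite strand over 604 bases. C18orf8 had a mean of 11.9 RPKM in control, 17.8 RPKM in shHIF1A, 9.67 RPKM in shFOXA1 and 25.5 RPKM in shFOXA1+shHIF1A, with an interaction of 0.80 ± 0.17 (adjusted p = 0.00747). How far these genes share reads was not tested.

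ASAH1, the acid ceramidase, rose likewise with HIF1A knockdown only in the FOXA1 knockdown (0.68 ± 0.11, adjusted p = 0.000152, against -0.02 ± 0.11, adjusted p = 0.912, without it), with an interaction of 0.70 ± 0.16 (adjusted p = 0.0113). Its libraries with both shRNAs were at 140, 110 and 115 RPKM, the controls at 95.3, 90.5 and 81.9 RPKM, shHIF1A at 82.8, 97.9 and 83.8 RPKM and shFOXA1 at 72.9, 75.8 and 77.8 RPKM. The other 2 groups, with KC7F2, ran from 87.3 to 106 RPKM, below those with both shRNAs. SMPD1, the acid sphingomyelinase, was at 20.97, 17.3 and 17.1 RPKM in control and 32.0, 32.5 and 26.0 RPKM in shHIF1A. It was at 18.2, 15.97 and 17.99 RPKM in shFOXA1 and 25.1, 20.0 and 20.8 RPKM in shFOXA1+shHIF1A. It was at 23.5, 20.3 and 24.0 RPKM in control+KC7F2 and 20.2, 21.2 and 19.0 RPKM in shFOXA1+KC7F2. The shHIF1A libraries were the highest of the 6 groups, with a rise of 0.69 ± 0.12 against control (adjusted p = 0.000186).

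LIPA, the acid lipase of cholesteryl esters and triglycerides, went the other way. It was at 12.5, 10.9 and 11.2 RPKM in control and 6.15, 9.06 and 7.49 RPKM in shHIF1A. It was at 12.8, 9.32 and 10.9 RPKM in shFOXA1 and 7.91, 5.08 and 5.69 RPKM in shFOXA1+shHIF1A. It was at 14.5, 12.7 and 13.6 RPKM in control+KC7F2 and 11.1, 11.1 and 12.0 RPKM in shFOXA1+KC7F2. All libraries with the HIF1A shRNA were below all others, with falls of 0.60 ± 0.15 (adjusted p = 0.00514) and 0.78 ± 0.15 (adjusted p = 0.000760). IFIT2, an interferon-induced gene whose exons overlap those of LIPA on the opposite strand, moved the opposite way, rising by 2.23 ± 0.19 with HIF1A knockdown against control (adjusted p = 2.22e-07).

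Of the 7 membrane proteins, 1 was called with HIF1A knockdown in each background, beside 42.0% and 37.5% of all tested genes. That call was CLCN7 against control (0.29 ± 0.10, adjusted p = 0.0308) and MCOLN1, a calcium channel of the lysosome, in the FOXA1 knockdown (0.49 ± 0.10, adjusted p = 0.00125). The rises of CLCN7 and of the sulfatase SGSH (0.26 ± 0.09, adjusted p = 0.0370) turned to lower values after removal of each library's length and GC trend. LAMP1, a common lysosomal marker and the gene whose promoter above holds the most E-boxes, was at 46.9 to 53.9 RPKM in control and 50.2 to 66.9 RPKM in shHIF1A, and passed in none of the 7 comparisons against a control.

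The response to HIF1A knockdown had the same direction in both FOXA1 backgrounds for most of the 43 genes. These comparisons share no library: 38 of the 43 (88.4%) had the same sign in both, against 74.0% of all tested genes. The number called in both was 14, all in the same direction, which is 66.7% of those called against control and 70% of those called in the FOXA1 knockdown. Over all tested genes these shares were 60.4% and 67.7%. The correlation of the log2 fold changes across the 43 genes was r = 0.76, and across all tested genes r = 0.62. Genes are not independent replicates, and these values describe the genes only.

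**Figure D4:**
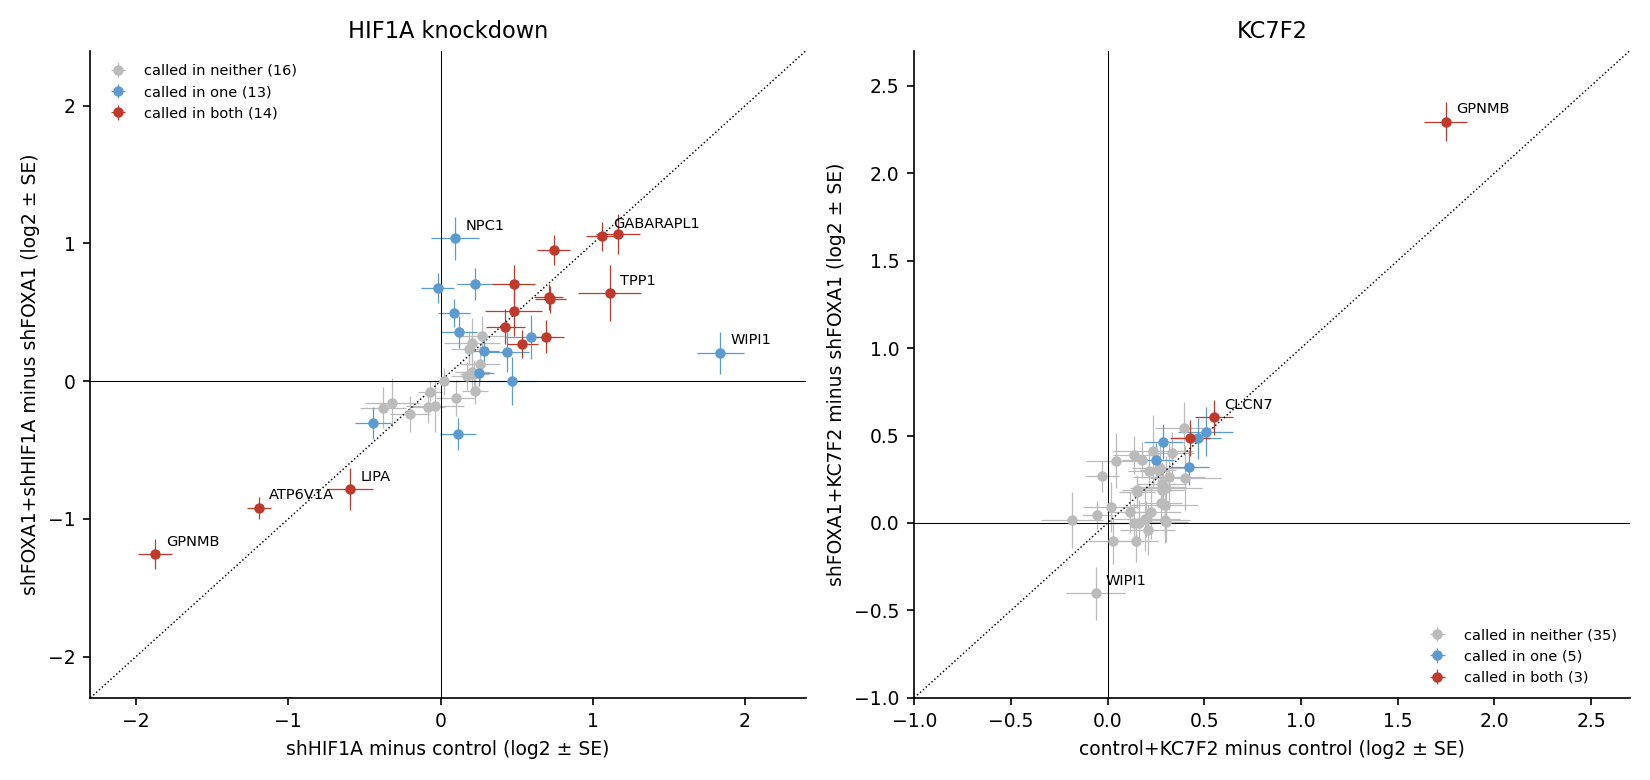
Log2 fold change ± SE of the 43 tested genes without FOXA1 knockdown (x axis) and with it (y axis), for HIF1A knockdown (left) and KC7F2 (right), with a dotted line at equal change. WIPI1 and NPC1 lie far from the line for HIF1A knockdown (interactions of -1.63 and 0.94), and GPNMB lies far from all other genes for KC7F2.

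KC7F2 raised few of these genes. Against control, 4 of the 43 (9.30%) rose and none fell, beside 2.04% of all tested genes called (1.05% rose and 0.992% fell). The median log2 fold change of the 43 was 0.25, that of all genes was 0.07, and 39 of the 43 had positive values. When KC7F2 was added to FOXA1 knockdown, 7 (16.3%) rose and none fell, beside 4.08% of all genes called (1.71% rose and 2.37% fell), with medians of 0.21 and -0.01. The genes called against control were GPNMB, CLCN7, NEU1 (0.42 ± 0.10, adjusted p = 0.0383) and CTSD (0.43 ± 0.10, adjusted p = 0.0413). Without the 3 libraries that stood apart in their short genes, GPNMB alone was called against control. Leaving out control replicate 1 gave 9 calls, and leaving out control replicate 2 or 3 or control+KC7F2 replicate 1 or 3 gave 2.

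CLCN7, a chloride-proton exchanger of the lysosome membrane, was at 13.9, 13.7 and 12.9 RPKM in control and 21.6, 19.2 and 19.2 RPKM in control+KC7F2. It was at 11.6, 14.6 and 13.2 RPKM in shFOXA1 and 20.01, 20.96 and 19.4 RPKM in shFOXA1+KC7F2. It was at 18.6, 15.8 and 15.4 RPKM in shHIF1A and 15.9, 13.9 and 16.1 RPKM in shFOXA1+shHIF1A. All KC7F2 libraries lay above all others, and CLCN7 rose by 0.55 ± 0.10 (adjusted p = 0.00610) and by 0.61 ± 0.10 (adjusted p = 0.00179). The first call was lost with only the groups compared in the fit (adjusted p = 0.126) and without the 3 libraries (0.51, adjusted p = 0.305), and the second held throughout.

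LAMP2, a structural protein of the lysosome membrane, was at 21.04, 20.4 and 20.3 RPKM in control and 25.7, 25.2 and 24.8 RPKM in control+KC7F2. It was at 21.8, 20.5 and 22.4 RPKM in shFOXA1 and 31.2, 31.0 and 27.7 RPKM in shFOXA1+KC7F2. It was at 19.8, 23.6 and 19.5 RPKM in shHIF1A and 25.3, 20.2 and 19.5 RPKM in shFOXA1+shHIF1A. KC7F2 libraries exceeded their counterparts in both backgrounds, and the test passed in the FOXA1 knockdown (0.46 ± 0.10, adjusted p = 0.0136) and not against control (0.29 ± 0.10, adjusted p = 0.210). CLN3, a lysosomal membrane protein named for a neuronal storage disease, was at 16.1, 12.8 and 13.7 RPKM in control, 20.6, 19.4 and 19.3 RPKM in control+KC7F2 and 11.3, 11.03 and 9.88 RPKM in shFOXA1. It was at 14.8, 15.5 and 15.3 RPKM in shFOXA1+KC7F2, 17.7, 16.9 and 14.2 RPKM in shHIF1A and 14.5, 10.5 and 13.5 RPKM in shFOXA1+shHIF1A. It rose with KC7F2 in the FOXA1 knockdown (0.48 ± 0.12, adjusted p = 0.0281), and its value against control did not pass (0.47 ± 0.12, adjusted p = 0.0544). CTSD (0.49 ± 0.10, adjusted p = 0.0113), TFE3 and the cholesterol-binding protein NPC2 (0.52 ± 0.14, adjusted p = 0.0471) made up the rest of the 7. Leaving out shFOXA1 replicate 2 or 3 or shFOXA1+KC7F2 replicate 1 or 2 gave 3 calls, and leaving out shFOXA1+KC7F2 replicate 3 gave 4.

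The response to KC7F2 ran in the same direction in both backgrounds for 37 of the 43 genes (86.0%), against 61.6% of all tested genes, again with no shared library. The 3 genes called in both were GPNMB, CLCN7 and CTSD. They were 75% of those called against control and 42.9% of those called in the FOXA1 knockdown, beside 51.7% and 25.9% over all tested genes. No gene of the 43 passed the interaction of FOXA1 knockdown and KC7F2 in limma, 2 had an unadjusted p below 0.05, and 0.0775% of all tested genes were called (0.0155% positive and 0.0620% negative).

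The HIF1A shRNA and the inhibitor were also compared directly, a comparison added after the values had been seen. Control+KC7F2 against shHIF1A, 10 of the 43 were higher and 11 lower, beside 42.6% of all tested genes called (19.6% higher and 23.0% lower). With FOXA1 knockdown in both groups, 11 were higher and 8 lower, beside 36.6% (13.2% higher and 23.4% lower), and the split was 16 to 5 with median-ratio scaling and 17 to 6 with quantile normalisation. The shares of the 43 that were called were 48.8% and 44.2%. GPNMB was 12.3-fold higher with KC7F2 than with the shRNA (log2 3.62 ± 0.11, adjusted p = 1.83e-12), and 11.7-fold higher with FOXA1 knockdown in both (log2 3.55 ± 0.11, adjusted p = 3.73e-12). ATP6V1A was higher with KC7F2 by 1.14 ± 0.08 (adjusted p = 2.27e-08) and 0.96 ± 0.08 (adjusted p = 1.51e-07), and LIPA by 0.82 ± 0.15 (adjusted p = 0.000433) and 0.84 ± 0.15 (adjusted p = 0.000408). WIPI1 was lower by 1.90 and 0.61, GABARAPL1 by 0.85 and 0.75 and CTSA by 0.89 and 0.75 on the log2 scale, with adjusted p of 8.92e-08 and 0.00492, 8.29e-06 and 3.37e-05, and 0.000139 and 0.000755. Without the 3 libraries that stood apart, 12 of the 43 were called between control+KC7F2 and shHIF1A, and without control+KC7F2 replicate 3, 13 were.

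FOXA1 knockdown against control called these genes about as often as all tested genes: 5 of the 43 rose and 5 fell (23.3% called), beside 24.1% of all tested genes called (9.52% rose and 14.6% fell), and the medians were -0.08 for the 43 and -0.09 for all. The rises were WIPI1, UVRAG, PSAP (0.40 ± 0.13), IDS (0.33 ± 0.12) and CTSB (0.31 ± 0.11), and the falls were GLA (-0.43 ± 0.15), CTSH (-0.38 ± 0.12), CLN3 (-0.38 ± 0.12), MCOLN1 (-0.32 ± 0.10) and PPT1 (-0.26 ± 0.08). PSAP encodes the precursor of the saposins that help lipid hydrolases, GLA an alpha-galactosidase, CTSH an aminopeptidase cathepsin and PPT1 a thioesterase. Only WIPI1 and UVRAG held in every alternative setting. The split was 7 to 1 with median-ratio scaling and 8 to 2 with quantile normalisation, and only 2 genes were called when the fit held just these groups. Leaving out control replicate 1 gave 5 calls, control replicate 2 gave 4, and shFOXA1 replicates 1, 2 and 3 gave 6, 5 and 3.

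Under HIF1A knockdown, FOXA1 knockdown raised 5 of the 43 and lowered 4, beside 14.5% of all genes called (5.27% rose and 9.25% fell). The rises were IDS (0.81 ± 0.12, adjusted p = 0.000164), NPC1 (0.75 ± 0.16, adjusted p = 0.00391), GPNMB, CTSB (0.52 ± 0.11, adjusted p = 0.00357) and ASAH1 (0.46 ± 0.11, adjusted p = 0.00984). The falls were WIPI1, GAA, SMPD1 (-0.45 ± 0.12, adjusted p = 0.0160) and PPT1 (-0.27 ± 0.08, adjusted p = 0.0309). In comparison with FOXA1 knockdown against control, which shares no library, 31 of the 43 (72.1%) had the same sign, beside 64.1% of all genes, and 4 were called in both, 3 of them in the same direction and WIPI1 in the opposite one. Those 4 are 44.4% of the genes called under HIF1A knockdown and 40% of those called against control, beside 53.3% and 32.1% over all tested genes. Of the 4, PPT1, CTSB and IDS kept their direction.

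Under KC7F2, FOXA1 knockdown raised 7 and lowered 7, beside 32.9% of all genes called (8.88% rose and 24.1% fell). The rises included WIPI1, GPNMB and SCARB2, the receptor that carries glucocerebrosidase to lysosomes (0.50 ± 0.09, adjusted p = 0.000459), and these 3 held in every alternative setting. The largest fall was that of NAGLU, a heparan sulfate glycosidase (-0.64 ± 0.18, adjusted p = 0.0124). The split was 11 to 4 with median-ratio scaling, which moved the median of all genes from -0.15 to 0.00, and 14 to 1 with quantile normalisation, under which the falls of PPT1 and ATP6V0E1 turned to higher values. Without the 3 libraries that stood apart 5 genes were called, and leaving out control+KC7F2 replicate 3 or shFOXA1+KC7F2 replicate 1 or 2 gave 8. The sign was the same as in FOXA1 knockdown against control for 37 of the 43 (86.0%), beside 80.9% of all genes.

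The interaction of the FOXA1 and HIF1A knockdowns passed for GPNMB, ASAH1 and NPC1 (positive) and WIPI1 (negative), 4 of 43, beside 7.61% of all tested genes (3.16% positive and 4.45% negative). Its arms with FOXA1 knockdown differed in FOXA1 itself, and the fall of HIF1A itself differed between the backgrounds, as given above. For the other 39 a difference between the backgrounds was not detectable at this size. An unadjusted p below 0.05 in limma was found for 10 of the 43, beside 2721 of the 12900 tested genes.

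Genes of the same pathways outside the 45 were counted from lists of known members. Of 6 genes that sort enzymes to lysosomes, 5 rose with HIF1A knockdown against control and none fell, beside 25.9% of all genes that rose, and 2 rose when it was added to FOXA1 knockdown, beside 24.0%. Those 5 included GNPTAB, which makes the mannose-6-phosphate tag on lysosomal enzymes (2.07 ± 0.11, adjusted p = 9.5e-10), and IGF2R, a receptor of that tag (1.17 ± 0.15, adjusted p = 1.12e-05). The 2 were GNPTAB and IGF2R: GNPTAB rose by 1.44 ± 0.11 (adjusted p = 3.92e-08) and IGF2R by 0.56 ± 0.15 (adjusted p = 0.00711), and the interaction of GNPTAB was -0.63 ± 0.15 (adjusted p = 0.0171). Of 31 other lysosomal enzymes and membrane proteins tested, 14 rose and 4 fell against control (58.1% called, beside 42.0% of all genes), with a median of 0.33. In the FOXA1 knockdown 10 rose and 3 fell (41.9% called, beside 37.5%), with a median of 0.18. The cathepsin CTSO rose in both (1.53 ± 0.12, adjusted p = 6.54e-08, and 1.22 ± 0.12, adjusted p = 6.6e-07).

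Of 31 genes of the core autophagy machinery, 14 rose and 2 fell with HIF1A knockdown against control (51.6% called, beside 42.0% of all genes, median 0.28). In the FOXA1 knockdown 17 rose and none fell (54.8% called, beside 37.5%, median 0.44). ATG16L1, which directs LC3 lipidation, rose by 1.22 ± 0.11 (adjusted p = 2.6e-07) and 1.17 ± 0.11 (adjusted p = 3.78e-07), and the kinase ULK1 by 1.03 ± 0.10 (adjusted p = 4.88e-07) and 0.61 ± 0.10 (adjusted p = 0.000121). None of the 31 was called with KC7F2 in either background by limma, where 6 and 3 had an unadjusted p below 0.05, beside 2.04% and 4.08% of all genes called. Of 13 further pump subunits tested, 3 rose and 3 fell in each background, and this share called (46.2%) lay beside 42.0% and 37.5% of all genes. The falls against control included ATP6V1C1 (-0.88 ± 0.10, adjusted p = 3.18e-06) and ATP6V0B (-1.03 ± 0.15, adjusted p = 5.09e-05).

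Of 8 autophagy receptors, 3 rose and 2 fell with HIF1A knockdown against control, and 3 rose and 3 fell in the FOXA1 knockdown (62.5% and 75% called, beside 42.0% and 37.5% of all genes). OPTN, CALCOCO2 and TAX1BP1, which bind ubiquitin-tagged cargo, rose in both, by 0.24 to 0.61 against control and 0.32 to 0.52 in the FOXA1 knockdown. BNIP3, a mitophagy receptor and known HIF1A target, fell with HIF1A knockdown by 0.74 ± 0.15 (adjusted p = 0.000739) and by 1.60 ± 0.15 in the FOXA1 knockdown (adjusted p = 3.88e-07). With KC7F2 none of the 8 receptors, BNIP3 included, fell in either background, beside 0.992% and 2.37% of all genes. Their lowest log2 values were -0.04 against control and -0.43 in the FOXA1 knockdown. SQSTM1, the cargo receptor p62, fell by 0.55 ± 0.12 with HIF1A knockdown against control (adjusted p = 0.00111) and rose by 0.83 ± 0.12 with KC7F2 (adjusted p = 0.000562), the same directions as GPNMB. It was the receptor called with KC7F2 in both backgrounds (0.55 ± 0.12 in the FOXA1 knockdown, adjusted p = 0.0111). Of 17 genes that control TFEB and its relatives at the lysosome, 3 rose and 1 fell with HIF1A knockdown against control (23.5% called, beside 42.0%), and FNIP1 rose by 0.76 ± 0.15 (adjusted p = 0.000603). FOXA1 knockdown against control called none of these 17 in limma, where 2 had an unadjusted p below 0.05, beside 24.1% of all genes called. CD68, a lysosomal glycoprotein used as a macrophage marker, rose by 1.45 ± 0.14 there (adjusted p = 1.31e-06), and the 8 macrophage markers stayed below 1 RPKM.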

How the data were processed

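RNA sequencing of 18 LNCaP libraries (6 groups of 3) was analysed from 1 table of RPKM values deposited by the authors, who used STAR and hg38 per the submitters' processing notes. How reads were counted, with which annotation and whether by strand, is not given in the sources used. Of 26475 lines, 32 had no value. There were 0 columns of other samples. Positions and exon overlaps are from GENCODE 29 (GRCh38, 24498 symbols matched) and promoters from RefSeq.

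limma 3.58.1 in R 4.3.3 fitted log2(RPKM + 0.5) of 12900 genes in 1 model over 6 groups (12 residual degrees of freedom, eBayes with trend, two-sided), with Benjamini-Hochberg adjustment within each of 11 contrasts and none over contrasts. Depth was recovered from 2367 genes of up to 200 nt, where 96.4 to 99.1% of low values were whole reads within 2%. At such depths low genes carry counting error. Libraries of 1 group were not duplicates: 0.98 to 1.98% of their tested values were identical. On simulated data of the same size (FOXA1 knockdown against control, 12900 genes), 38 of 67 genes changed 1.5-fold, 61 of 67 changed 2-fold and 63 of 66 changed 4-fold were called, with 4 false calls among 166.

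The genes and lists were chosen with earlier results of these data known. The rule for named genes gave values in every library for GPNMB, the MiT factors and the 3 genes of each role with the smallest p of limma's F test. It gave fold changes also for genes called at a log2 change of at least 1 or in an interaction, and for up to 2 called genes of each wider list per comparison, by smallest adjusted p. Genes named beyond it, ASAH1 by library, genes with overlapping exons and the direct comparison of KC7F2 with the shRNA were chosen after their values were seen. Alternatives were a pseudocount of 0.1 or of 1, no filter or one of 5 RPKM, scaling by median ratios, quantile normalisation, only the groups compared, the replicate block, each library left out, 3 libraries left out together and removal of each library's trend on length and GC content. Python 3.11.15 with numpy 2.4.6, pandas 2.3.3 and matplotlib 3.10.9 was used for annotation and figures.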

Additional observations from a re-analysis of the deposited data

Results flagged for a closer look

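For 4 of the 43 genes (9.30%) the effect of HIF1A knockdown differed between cells with and without FOXA1 knockdown by the interaction term of limma. The share over all tested genes was 7.61%. The term was 0.62 on the log2 scale for GPNMB, whose fall was smaller with FOXA1 knockdown. In both backgrounds all GPNMB values with the HIF1A shRNA lay below all those of the group without it. The interaction was 0.70 for ASAH1 and 0.94 for NPC1, whose libraries with the HIF1A shRNA lay above all those without it only in the FOXA1 knockdown. It was -1.63 for WIPI1, whose rise of 1.84 was 0.21 in the FOXA1 knockdown. FOXA1 itself was at 34.1 RPKM in shFOXA1 and 64.5 RPKM in shFOXA1+shHIF1A, so the arms with FOXA1 knockdown differed in FOXA1 level. The HIF1A shRNA lowered HIF1A 5.60-fold against control and 18.7-fold in the FOXA1 knockdown (interaction -1.74 ± 0.33, adjusted p = 0.00326). The part of either difference in these 4 results was not tested. The GPNMB interaction was lost in 8 of 22 alternative settings, and the other 3 held in all 22.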

How the results depend on the processing

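Of 129 calls of single genes over the 11 comparisons, 64 held in every alternative setting, 65 were lost in at least 1 and 4 turned. With only the groups compared, the genes called were 2 for FOXA1 knockdown and 1 for KC7F2, each against control. Without the 3 libraries that stood apart in their short genes they were 5 for FOXA1 knockdown against control, 1 for KC7F2 against control, 5 for FOXA1 knockdown under KC7F2 and 12 between KC7F2 and HIF1A knockdown. For KC7F2 against control they were 2 with no filter and 2 with quantile normalisation. For KC7F2 added to FOXA1 knockdown they were 13 with quantile normalisation and 13 with the length and GC trend removed. The cause was not tested.

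With 1 library left out, calls ranged from 3 to 11 for FOXA1 knockdown, 17 to 23 for HIF1A knockdown and 2 to 9 for KC7F2 against control, from 14 to 20 and 3 to 6 for HIF1A knockdown and KC7F2 added to FOXA1 knockdown, and from 6 to 11 and 8 to 12 for FOXA1 knockdown under HIF1A knockdown and under KC7F2. They ranged from 3 to 4 and 0 to 0 for the 2 interactions, and from 13 to 17 and 15 to 18 for KC7F2 against HIF1A knockdown without and with FOXA1 knockdown.

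Replicate numbers were not used as pairs in the main fit. Over 45 same-numbered pairs of libraries the correlation of deviations ran from -0.21 to 0.25, with 9 pairs over 0.1. Over the 90 other pairs between groups it ran from -0.46 to 0.36, also with 9 over 0.1. Of 18 libraries, 7 correlated best with their own number. These values do not settle whether same-numbered libraries belong together. With the replicate number as a block, calls were 11, 21 and 6 for FOXA1 knockdown, HIF1A knockdown and KC7F2 against control, 22 and 9 for those added to FOXA1 knockdown, 12 and 15 for FOXA1 knockdown under HIF1A knockdown and KC7F2, 4 and 0 for the interactions, and 22 and 19 for KC7F2 against HIF1A knockdown. The lowest depth (3.21 in units of 1e6 reads) limits low genes such as MITF most.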
